A study of Mus musculus with 18 samples.

Results

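The R6/1 transgenic mice aged 27 weeks were compared with R6/1 transgenic mice aged 18 weeks, to ask whether expression in the brain hemisphere moved on between these ages. The members were taken by their titles, which name 4 transgenic mice at 27 weeks and 3 at 18 weeks, 7 of the 18 samples in all. The other 11 samples were 2 transgenic mice at 22 weeks and 3 wild-type littermates at each of the ages 18, 22 and 27 weeks. Total RNA of 1 hemisphere per mouse was labelled and hybridised to a whole-genome Affymetrix array, and each deposited value is the signal intensity of a probe set after scaling by the authors to a trimmed mean of 100 on every array. The design text of the series states 3 mice per genotype and age, whereas the titles give 4 transgenic mice at 27 weeks and 2 at 22 weeks, and the titles were followed.

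R6/1 mice express a transgene made of the first exon of human HTT, in which the CAG repeat is expanded, and they develop a slowly progressive disorder of movement and cognition that models Huntington's disease. The fragment forms aggregates in neurons, and transcripts of striatal medium spiny neurons, the cells most affected in the human disease, are known to be low in such mice well before neurons are lost. The transgene is expressed throughout the brain, and every mouse of both groups compared here carried it, so that the comparison is one of age within the disease model. In a whole hemisphere, fewer cells of a type and less RNA per cell cannot be told apart.

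The 7 arrays held signal from neurons and glia throughout. Snap25, a synaptic membrane protein of all neurons, lay between 4303 and 5171, Mbp, the myelin basic protein, between 5201 and 6817, and Slc17a7, the vesicular glutamate transporter of cortex, between 186 and 306. Gabra6, the receptor subunit of cerebellar granule cells, lay between 1015 and 1579, so cerebellum was present in each. The 18-week replicate 3 stood apart, with a mean correlation of 0.966 with the other 6 arrays against 0.973 to 0.976 for the rest. It is left out as an alternative beside many of the results, though not all that it touches. Htt itself read 112, 107 and 224 at 18 weeks and 126, 113, 118 and 97.3 at 27 weeks, a difference of -0.29 ± 0.23 (SE) on the log2 scale, and the high value was that of replicate 3. The transgene holds the first exon of the human gene alone, and whether the Htt probe set reads it was not tested.

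Other features of the dissections and mice differed within the groups. Gh, the growth hormone of the pituitary, read 35.5, 15.7 and 45.5 at 18 weeks and 6.6, 558, 1019 and 94.6 at 27 weeks. Prl, prolactin, read 19.6, 0.6 and 2.4 at 18 weeks and 2.2, 17.6, 79.5 and 25.8 at 27 weeks. Xist, transcribed from the inactive X chromosome, was at 552 in the 18-week replicate 1, at 2397 in the 22-week replicate 2 and at 638 in the 27-week replicate 3, and between 4.6 and 21.5 in the other 6 transgenic mice. Eif2s3y, a gene of the Y chromosome, read 6.4, 0.4 and 1.1 in those same mice and 129 to 183 in the others. The labels call the mice sex-matched, whereas 1 mouse at each age differed from the others of its group in these genes.

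Between 18 and 27 weeks no change in the transgenic mice passed the test. Of 27022 probe sets tested with limma, 0 were lower and 0 were higher at an adjusted p under 0.05, and the smallest adjusted p was 0.403. At an unadjusted p under 0.05 there were 1705 probe sets, 6.31% of those tested, 871 lower and 834 higher at 27 weeks. With each gene represented by its brightest probe set, 802 of 12582 genes (6.37%) reached that level, 398 lower (3.16%) and 404 higher (3.21%). The median log2 fold change over all genes was -0.01. The fit estimated the change of a typical gene with an SE of 0.13, which gives an unadjusted 95% interval of ± 0.28 log2 units. The data therefore do not show that smaller changes were absent. Larger ones are not excluded either, since the adjusted threshold asks for more. In the remainder, a gene is called higher or lower from its values alone, and no gene named passed the adjusted threshold in this comparison unless it is said.

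The wild-type mice of the same ages differed in cerebellar signal. The 18-week wild-type replicate 1 read 10.9 for Gabra6, against 936 to 1570 in the other 5, and 8 of 32 cerebellar markers were higher at 27 weeks at an unadjusted p under 0.05, with a median change of 0.63. In wild-type mice 0 probe sets were lower and 1 was higher (0.0037%) by limma at an adjusted p under 0.05, and 2006 (7.42%) reached an unadjusted p under 0.05, as did 7.77% of genes. The difference between genotypes in the change with age, tested as an interaction in the same limma fit, was called for 0 probe sets, with 1086 (4.02%) at an unadjusted p under 0.05, and without that mouse for 0, with 902. Its part in the wild-type counts was not tested. An age effect particular to the transgenic mice was thus not shown for any probe set.

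The genes that separate transgenic from wild-type mice most strongly did so at each age. For those low in transgenic mice the median difference was -1.45, -1.69 and -1.40 log2 units at 18, 22 and 27 weeks. For those high in them it was 0.89, 1.05 and 1.21. Gabra6 was low in the wild-type replicate 1 at 18 weeks (10.9) and replicates 2 and 3 at 22 weeks (9.9 and 0.6). The part of this in the differences was not tested. Between 18 and 27 weeks the high genes had a median change of 0.18 in transgenic mice, 10 of 12 positive, or 0.08 without the 18-week replicate 3. These 24 genes, 12 low and 12 high in transgenic mice, had been picked on the same mice for their mean difference over the 3 ages, so their direction between genotypes is no finding here, and their course with age is given as a description. Penk, the precursor of the enkephalins and a marker of indirect-pathway striatal neurons, read 334, 362 and 401 in the younger mice and 305, 399, 349 and 402 in the older ones. The ages overlapped fully, with a log2 fold change of -0.01 and a 95% interval from -0.23 to 0.21. In wild-type mice Penk lay between 797 and 1062 at these ages. Ppp1r1b, the gene of DARPP-32, through which dopamine acts on protein phosphatases, read 134, 135 and 176 at 18 weeks and 127, 178, 190 and 179 at 27 weeks, and its fold change was 0.17 ± 0.15 (SE). Its difference from wild type was -1.56 at 18 weeks and -1.31 at 27 weeks.

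The activity-regulated and neuropeptide genes among the 12 low genes behaved likewise. Arc, an immediate early gene of active synapses, read 123, 53.6 and 117 at 18 weeks and 81.4, 52.9, 124 and 99.7 at 27 weeks, a spread between mice larger than the change of -0.10 ± 0.36 (SE). The changes of Egr2, a transcription factor gene induced by activity, of Trh, the precursor of thyrotropin-releasing hormone, and of Dusp5, a phosphatase of the ERK kinase, were -0.02, -0.02 and -0.24. Avp, the vasopressin precursor, and Slc6a3, the dopamine transporter, gave 0.19 and 0.29. Of the 12 genes, 9 had a negative fold change, the median was -0.06, and without the 18-week replicate 3 the median was 0.05.

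The other 4 of the 12 low genes were lower still at 27 weeks, at an unadjusted p under 0.05, against 3.16% of all genes. When the 18-week replicate 3 was left out, 1 of the 12 was lower at that level, against 2.07% of all genes. Lrrc10b, a gene enriched in striatum, read 26.9, 21.9 and 39.1 at 18 weeks, 18.4 and 24.7 at 22 weeks, and then 8.7, 17.7, 16 and 19.3 at 27 weeks. Its 18- and 27-week mice did not overlap, as in 3.19% of genes in this direction and 2.99% in the other, and the log2 fold change was -0.74 ± 0.24 (SE, adjusted p by limma 0.77) against -0.40 in wild-type mice. Pmch, a hypothalamic gene whose peptide MCH promotes feeding and sleep, read 102, 152 and 142 at 18 weeks and 112, 102, 91.7 and 77.1 at 27 weeks, a change of -0.44 beside -0.38 in wild-type mice. Vip, the vasoactive intestinal peptide of cortical interneurons, read 126, 119 and 160 and then 117, 105, 118 and 106, which is -0.25 beside -0.30 in wild-type mice. The probe set annotated to Mir1931 gave 29.0, 40.6 and 49.7 at 18 weeks and 29.1, 0.9, 2.8 and 3.3 at 27 weeks, where replicate 1 lay within the 18-week values and the other 3 were near the background.

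Of the 12 genes high in transgenic mice, Onecut2 alone reached an unadjusted p under 0.05 between the ages, against 3.21% of all genes higher. Onecut2, a homeodomain transcription factor gene of developing neurons, read 45.4, 42.8 and 38.6 at 18 weeks, 59.7 and 52.7 at 22 weeks, and then 65.4, 76.9, 57.9 and 69.8 at 27 weeks. The 18-week mice lay below all others, and the 22-week mice overlapped the lowest of the 27-week mice. The change was 0.61 ± 0.15 (SE, adjusted p by limma 0.60), whereas wild-type mice went from 21.0 to 25.8 at 18 weeks to 15.9 to 20.7 at 27 weeks. The difference between genotypes was 0.70 at 18 weeks and 1.61 at 27 weeks, and the interaction had an unadjusted p of 0.000656 and an adjusted p by limma of 0.999. Its 2 other probe sets had a median fold change of 0.38.

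The interferon-induced genes of that group were high at both ages. Rtp4 read 85.1, 101 and 55.3 at 18 weeks and 86.6, 77.5, 110 and 99.3 at 27 weeks, a change of 0.23 ± 0.24 (SE). Usp18, which removes the ubiquitin-like protein ISG15 and limits interferon signalling, gave 32.1, 50.1 and 24.0 and then 29.2, 37.1, 44.0 and 43.9, and Oasl2 gave 41.2, 35.1 and 38.3 and then 38.8, 31.5, 42.6 and 48.6. The ages overlapped in all of these. Ifi27l2a, Skor1, Sfmbt2, Gm2102, Adamts18 and Crybb3 had changes of 0.52, 0.78, 0.29, 0.21, 0.15 and 0.05, and Brca1 and Uncx of -0.04 and -0.17. Of these 8, Skor1 did not overlap between the ages, with 35.7 to 65.4 at 18 weeks and 81.7 to 105 at 27 weeks, and in wild-type mice it was higher at 27 weeks too, by 1.68. In wild-type mice Skor1 was at 1.0 in the 18-week replicate 1, where the cerebellar gene Gabra6 was at 10.9 against 936 to 1570 in the other wild-type mice of 18 and 27 weeks. What that part of the tissue contributes was not tested.

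**Figure D1:**
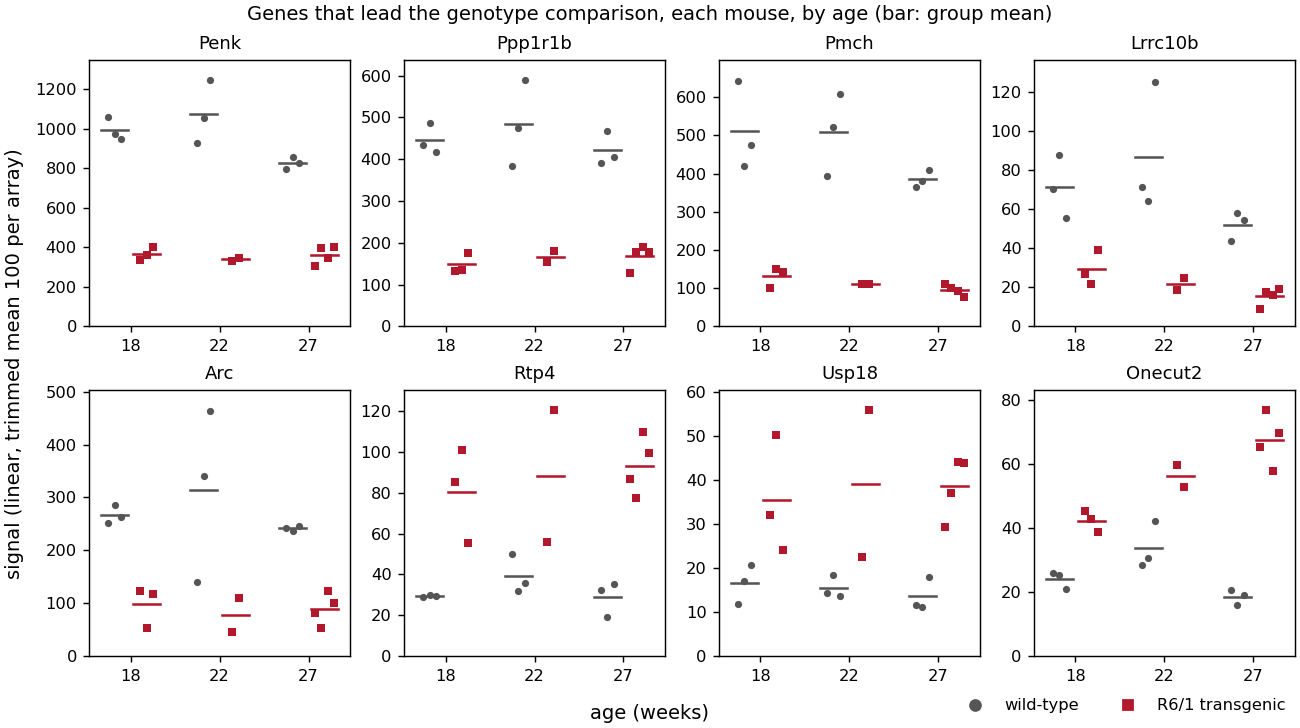
Signal of 8 genes that differ between genotypes in each mouse at 18, 22 and 27 weeks, with wild-type mice as grey circles, R6/1 mice as red squares and bars at the group means. Penk, Ppp1r1b, Arc, Rtp4 and Usp18 overlap between the R6/1 ages, Pmch overlaps at 102 to 112, Lrrc10b is lower at 27 weeks (8.7 to 19.3 against 21.9 to 39.1) and Onecut2 is higher (57.9 to 76.9 against 38.6 to 45.4).

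Genes were also chosen by the difference between genotypes at 22 weeks, whose means share no mouse with the comparison of 18 and 27 weeks, although the spread was estimated from all 18 arrays. At 22 weeks 366 genes were lower (2.91%) and 138 were higher (1.1%) in transgenic than in wild-type mice at an adjusted p by limma under 0.05. Between 18 and 27 weeks in transgenic mice the 366 low genes had a median log2 fold change of -0.08, with 272 of them negative. Of the 366, 35 were lower and 7 higher at an unadjusted p under 0.05, against 3.16% and 3.21% of all genes. The 138 high genes had a median of 0.08, with 12 higher and 1 lower at that level. These shifts were small beside the differences at 22 weeks, whose medians were -0.76 and 0.54.

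A large share of this shift went with the 18-week replicate 3. Without it in the whole fit, 461 and 216 genes were chosen at 22 weeks, and their medians were -0.03 and 0.04. Of the 461, 16 were lower (3.47%) and 4 higher (0.87%) at an unadjusted p under 0.05. Of the 216, 1 was lower (0.46%) and 8 were higher (3.70%). Over all genes in that fit the shares were 2.07% and 2.11%. Without the 3 wild-type mice low in Gabra6, of which 2 are 22 weeks old, 24 and 6 genes were chosen.

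Among lower values at 27 weeks, the 12 genes with the smallest unadjusted p whose mice did not overlap had adjusted p-values by limma from 0.528 to 0.671. Erich3, a gene of ciliated cells, read 81.8, 99.9 and 93.2 at 18 weeks and 56.1, 70.2, 67.4 and 63.4 at 27 weeks, a log2 fold change of -0.48 ± 0.10 (SE). The 22-week mice, at 95 and 90.2, lay with the 18-week mice. Cpped1, a phosphatase that acts on Akt, read 73.2, 68.7 and 79.7 and then 45.2, 56.1, 43.9 and 50.7, and Irf2bp2, a transcriptional co-repressor, read 254, 229 and 332 and then 164, 184, 174 and 169. Their changes were -0.55 and -0.62, while wild-type mice gave -0.11 and -0.16.

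The change was largest for Gabra2. Gabra2, a subunit of GABA-A receptors, read 183, 258 and 315 at 18 weeks, 165 and 162 at 22 weeks, and then 152, 165, 89.0 and 88.8 at 27 weeks. Its change was -1.02 ± 0.27 (SE), and its 2 other probe sets had a median of -0.74. Acvr1c, which encodes the activin receptor ALK7, read 68.6, 70.5 and 72.9 at 18 weeks and 39.7, 43.2, 40.8 and 43.3 at 27 weeks. Replicates lay close together at each age and the 22-week mice, at 59.9 and 46.6, fell between them, with a change of -0.69 ± 0.17 (SE) against -0.23 in wild-type mice. Mal2, a protein of vesicle transport, read 365, 359 and 532 and then 287, 296, 289 and 261, and wild-type mice were also lower at 27 weeks, by -0.35 beside -0.53. Sox5, a transcription factor gene of deep-layer cortical neurons, read 85.2, 90.1 and 84.4 and then 52.9, 52.9, 53.2 and 68.7.

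Of the other lower genes, Hyou1, a chaperone of the endoplasmic reticulum, gave -0.37 in transgenic and -0.36 in wild-type mice, and Fhl2, a LIM-domain co-factor, gave -0.44 and -0.35. Plpp3, a lipid phosphatase of astrocytes, read 1246, 1207 and 1396 at 18 weeks and 948, 1089, 962 and 848 at 27 weeks, a change of -0.42 ± 0.11 (SE). The long transcript C230034O21Rik gave -0.65 and the peroxiredoxin gene Prdx2 -0.19. All 12 were lower at 27 weeks in wild-type mice as well, 4 of them at an unadjusted p under 0.05. The other probe sets of Irf2bp2 and Prdx2 had medians of 0.02 and 1.20, of the opposite sign. Those of Acvr1c, Sox5, Plpp3 and Hyou1 had -0.13, -0.12, -0.10 and -0.03. These were smaller falls than the -0.69, -0.57, -0.42 and -0.37 at the brightest probe set.

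The 12 genes leading the higher values, chosen by the same rule, had adjusted p-values by limma from 0.486 to 0.620. Rps9, a protein of the small ribosomal subunit, read 1702, 1515 and 1547 at 18 weeks, 2108 and 1891 at 22 weeks, and then 2170, 1880, 1906 and 2249 at 27 weeks, a change of 0.37 ± 0.07 (SE). Ranbp1, a co-factor of the Ran transport cycle, read 647, 614 and 608 and then 721, 779, 897 and 868, which is 0.38 beside 0.01 in wild-type mice. Gas5, a non-coding host gene of small nucleolar RNAs, read 818, 905 and 809 and then 1065, 1107, 1185 and 1290. Its change in wild-type mice at this probe set was -0.10. All 4 of the 27-week mice lay above the 18-week mice in these 3 genes.

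Zmynd11, a reader of histone H3.3 methylation, read 1085, 844 and 816 at 18 weeks and 1134, 1254, 1281 and 1167 at 27 weeks, a change of 0.41 ± 0.09 (SE), and it passed at an adjusted p by limma of 0.038 when the 18-week replicate 1 was left out. Wild-type mice gave -0.17, and the interaction for Zmynd11 had an unadjusted p of 0.0002. Swi5, a recombination repair co-factor, read 509, 584 and 565 and then 724, 710, 768 and 869, a change of 0.47 beside 0.25 in wild-type mice. Arntl, the core clock gene also called Bmal1, read 115, 115 and 124 and then 157, 186, 176 and 142. Its 1 other probe set gave -0.34, as those of Rps9 and Cep164 gave -0.39 and -0.20.

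The remaining genes of the group were Cep164, a protein of the centriole, with 0.42, Adss, an enzyme of AMP synthesis, with 0.34, Birc3, an inhibitor of apoptosis, with 0.89, Rian, an imprinted non-coding RNA, with 1.10, and Spr, sepiapterin reductase of tetrahydrobiopterin synthesis, with 0.71. Rian read 494, 594 and 201 at 18 weeks and 988, 750, 607 and 1118 at 27 weeks, and Spr read 110, 115 and 56.5 and then 133, 139, 168 and 161. In both the 18-week replicate 3 was the lowest. Of the 24 leading genes, 23 differed in the same direction at 22 weeks against 18 weeks, which shares the 18-week mice, and 18 had a 22-week mean between the means of the other ages. Under 20 other settings none of the leading genes tested changed sign. Of the 24, 21 were tested under the stricter filter on dim probe sets and all 24 in the rest. Quantile normalization aside, these settings could not change a sign, because the genes were chosen for mice that did not overlap. Where a gene had other probe sets, their median had the opposite sign in 5 of 14 genes.

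**Figure D2:**
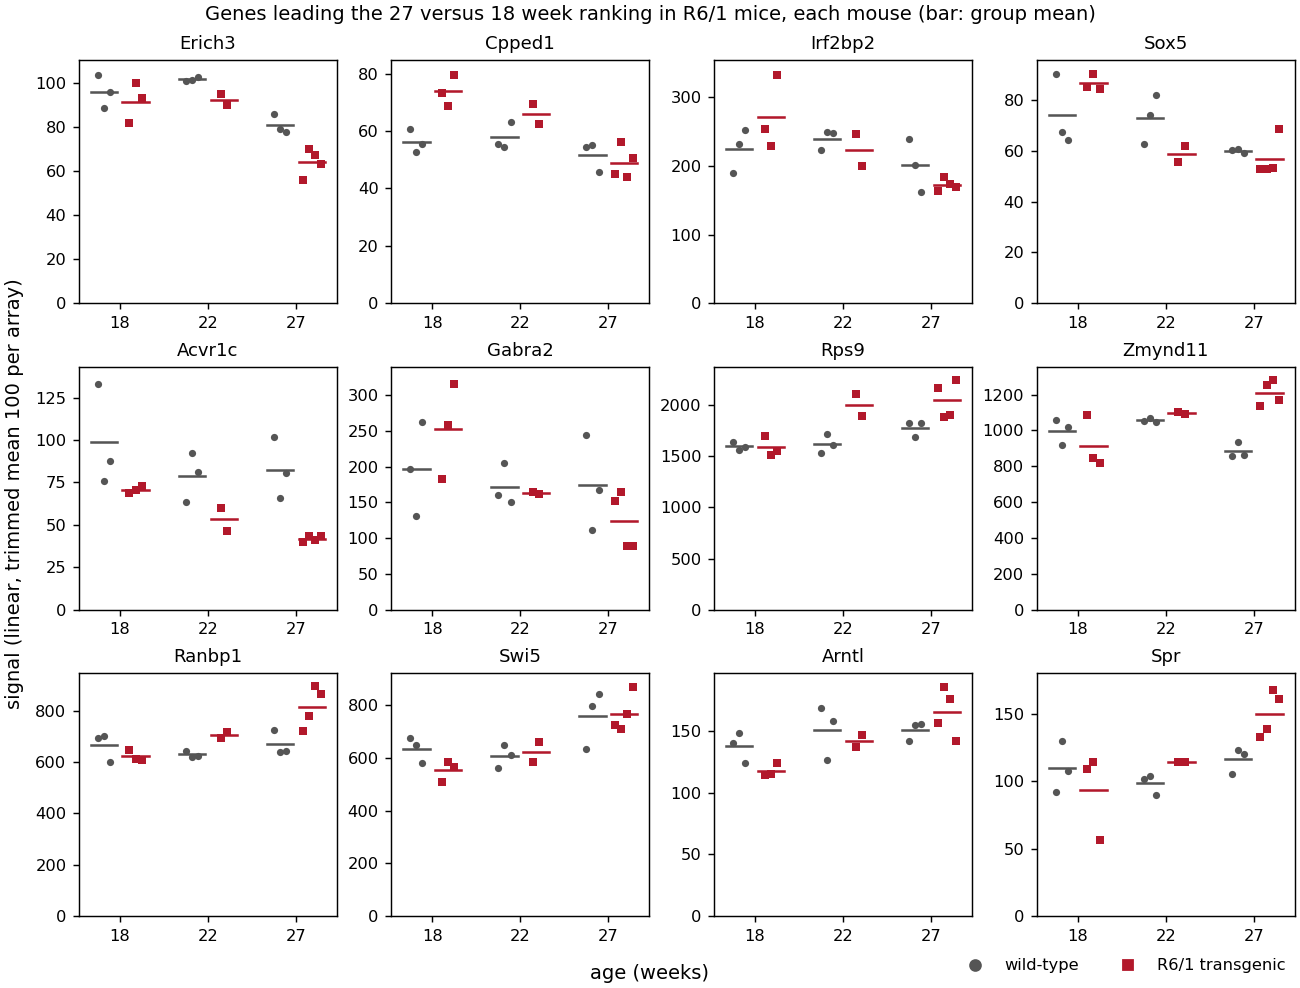
Signal of 12 of the 24 genes leading the ranking, 6 lower and 6 higher at 27 weeks, in each mouse, with wild-type mice as grey circles, R6/1 mice as red squares and bars at the group means. The R6/1 mice of 18 and 27 weeks do not overlap in any panel, a condition of the choice. In Acvr1c the 27-week mice lie between 39.7 and 43.3 against 68.6 to 72.9. Each panel shows the brightest probe set, and the 2 others of Acvr1c had a median change of -0.13.

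When the spread was estimated from transgenic mice alone, a few probe sets did pass. In a limma fit of the 9 transgenic arrays 1 was lower and 8 were higher at an adjusted p under 0.05, which is 0.0333% of those tested, and with the 7 arrays of 18 and 27 weeks 1 was lower and 4 were higher (0.0185%). The probe set 1419291_x_at of Gas5 rose from 434, 483 and 530 at 18 weeks to 912, 935, 832 and 981 at 27 weeks, by 0.92 (adjusted p by limma 0.0147 in the fit of 9). The probe set 1420940_x_at of Rgs5, a pericyte regulator of G-protein signalling, rose from 22.2, 31.0 and 17.8 to 68.1, 76.8, 64.2 and 75.9, by 1.42 (adjusted p by limma 0.0147). That of Adamts4, an aggrecan-cleaving protease gene also expressed in oligodendrocytes, rose from 9.9, 13.8 and 12.9 to 36.6, 47.1, 43.1 and 34.9, by 1.38 (adjusted p by limma 0.0184). None of these is the brightest probe set, by which each gene is represented elsewhere. The brightest of Gas5 gave 0.46. That of Rgs5 was not among the 2 endothelial and pericyte genes higher by limma at an unadjusted p under 0.05. For this Gas5 probe set wild-type mice read 384, 380 and 709 at 18 weeks and 738, 793 and 898 at 27 weeks. For Rgs5 they read 39.6, 24.6 and 89.1 and then 92.1, 88.0 and 69.5. For Adamts4 they read 17.0, 12.2 and 28.5 and then 32.8, 28.8 and 31.9. The other probe sets of higher signal, 1447096_at, 1434893_at, 1452308_a_at, 1420310_at and 1458382_a_at, and the lower one, 1455136_at, have no gene in the annotation used.

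In several of these probe sets the 22-week mice lay beyond the 27-week mice. For 1447096_at the transgenic mice read 0.3, 3.3 and 0.4 at 18 weeks, 110 and 85.6 at 22 weeks, and then 52.2, 55.7, 41.0 and 35.0 at 27 weeks. Wild-type mice of the same age differed from each other, with 1.3, 0.3 and 50.5 at 18 weeks, 85.1, 78.7 and 4.0 at 22 weeks, and then 59.1, 45.0 and 37.1 at 27 weeks. The probe set 1455136_at ran the other way, with 916, 827 and 813 at 18 weeks, 223 and 268 at 22 weeks, and then 504, 532, 509 and 529 at 27 weeks in transgenic mice, and between 300 and 1323 within the 22-week wild-type mice. Those differences between wild-type mice of an age entered the shared spread of the 18-array fit, in which the adjusted p-values of the same probe sets lay between 0.403 and 0.767. For 1420310_at and 1458382_a_at the 22-week transgenic mice, at 43.2 to 45.9 and 31.3 to 33.1, lay within the values at 27 weeks. In the same probe sets the 27-week wild-type replicate 3 read 261 and 193, against 2.0 to 33.2 in the other wild-type mice.

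**Figure D3:**
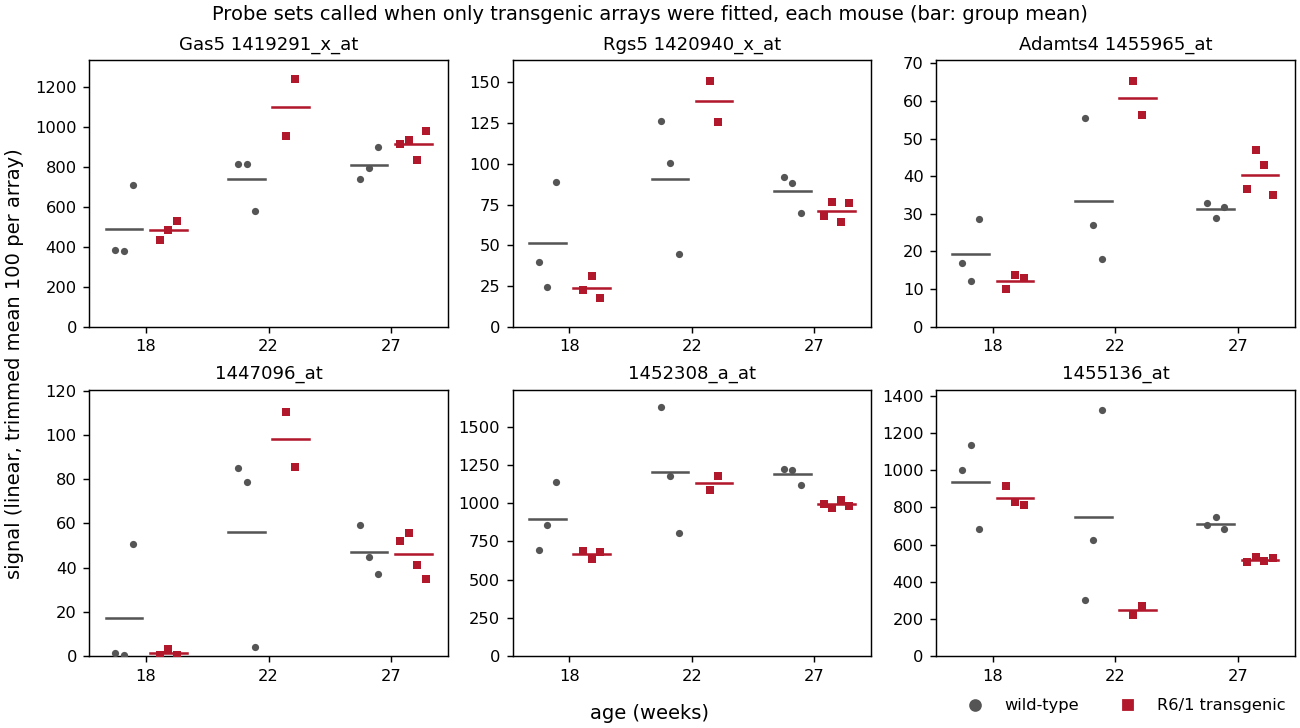
Signal of 6 of the 9 probe sets called when only transgenic arrays were fitted, in each mouse by age, with wild-type mice as grey circles, R6/1 mice as red squares and bars at the group means. The R6/1 mice of an age lie close together, which the choice by a call in that fit favours. Wild-type mice of 18 and of 22 weeks spread widely, as in 1447096_at with 0.3 to 50.5 at 18 weeks. None of the 6 was called in the fit of all 18 arrays.

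Genes of the proteasome, the complex that degrades ubiquitinated proteins, had the largest share of higher values among the gene lists. Of 31 measured members, 8 were higher (25.8%) and 0 lower by limma at an unadjusted p under 0.05, against 3.21% and 3.16% of all genes, and 29 had a positive fold change with a median of 0.12. None passed the adjusted threshold. Psmd4, a ubiquitin receptor of the regulatory particle, read 674, 606 and 573 at 18 weeks and 745, 716, 873 and 760 at 27 weeks, a change of 0.32 ± 0.09 (SE). Its ATPase partners Psmc5 and Psmc4 gave 0.52 and 0.33, and Psmb7, a catalytic subunit, gave 0.43.

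The proteasome values differed between mice of the same age. The median level of the list, relative to the 7 mice, was -0.04, -0.09 and -0.11 at 18 weeks, 0.00 and 0.08 at 22 weeks, and then 0.09, -0.06, 0.15 and 0.06 at 27 weeks, where replicate 2 lay among the 18-week mice. In the 18-week replicate 3 Psmc5 was at 618 and Psmb7 at 1032, against 1054 to 1159 and 1976 to 2139 in its group. Without that mouse 5 of 31 members were higher at an unadjusted p under 0.05, beside 266 of 12582 genes (2.11%), and the median was 0.10. In wild-type mice the median was -0.01 with 0 members at that level in either direction, and the difference of the list between genotypes was not tested as a list. The ratio of 3 prime to 5 prime signal of Gapdh, a measure of RNA and labelling quality, was 0.707 ± 0.023 (SD, n = 3) at 18 weeks and 0.754 ± 0.026 (SD, n = 4) at 27 weeks (two-sided exact permutation p = 0.114, where 0.0571 is the smallest possible), and its part in the list was not tested.

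Mitochondrial and chaperone genes were shifted less. Of 53 genes of oxidative phosphorylation 47 had a positive change, with a median of 0.07, and 3 (5.66%) were higher and 0 lower by limma at an unadjusted p under 0.05, against 3.21% and 3.16% of all genes. Ndufa5 and Ndufa4, subunits of complex I and of the respiratory chain, gave 0.20 and 0.18. Without the 18-week replicate 3 the median was 0.02 and 1 gene was higher at that level, against 2.11% of all genes. Of 34 heat shock and chaperone genes 0 were lower or higher by limma at an unadjusted p under 0.05, and the median was 0.07. Stip1, which links the chaperones of the HSP70 and HSP90 families, gave 0.20 and Hspa5 of the endoplasmic reticulum 0.19.

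Interferon-induced genes had the highest median of the larger lists, 0.21 over 35 genes. By limma 5 were higher and 0 lower at an unadjusted p under 0.05, against 3.21% and 3.16% of all genes, and 29 of the 35 had a positive change. Ifi27 read 324, 313 and 303 at 18 weeks and 403, 367, 493 and 407 at 27 weeks, a change of 0.40 ± 0.15 (SE) beside 0.23 in wild-type mice. Gbp6, a guanylate-binding protein gene, read 23.6, 44.6 and 35.4 and then 43.5, 40.4, 74.8 and 74.0, and Igtp, an interferon-induced GTPase, read 39.6, 78.7 and 43.5 and then 72.2, 98.6, 116 and 83.8. The ages overlapped in Gbp6 and Igtp but not in Ifi27. Ifitm3, an antiviral membrane protein gene, and Psmb8, a subunit of the immunoproteasome, were the other 2 members at that level.

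The interferon list varied between mice of an age about as much as between ages. Its median level was -0.10, 0.09 and -0.31 at 18 weeks, -0.22 and 0.28 at 22 weeks, and then 0.11, 0.03, 0.17 and 0.10 at 27 weeks. Without the 18-week replicate 3, the lowest, 2 members remained higher at an unadjusted p under 0.05, against 2.11% of all genes. The median was then 0.13. In wild-type mice the median change was 0.04. The median difference between genotypes over the list was 0.45 at 18 weeks and 0.65 at 27 weeks.

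Of 33 genes of microglia and complement, 3 (9.09%) were higher and 0 lower by limma at an unadjusted p under 0.05, against 3.21% and 3.16% of all genes, with a median of 0.10. Csf1r, the receptor that microglia need for survival, read 805, 771 and 646 at 18 weeks, 880 and 774 at 22 weeks, and then 965, 889, 990 and 879 at 27 weeks. The 18- and 27-week mice did not overlap, with a change of 0.33 ± 0.09 (SE, adjusted p by limma 0.67) against -0.10 in wild-type mice. Fcer1g, the shared chain of immunoglobulin Fc receptors, and Ctsz, a lysosomal protease, gave 0.44 and 0.22. C1qa, the complement component, read 304, 222 and 195 and then 309, 277, 280 and 280, within which the ages overlap. In the fit without the 18-week replicate 3, 2 members were higher, against 2.11% of all genes, and the list median was 0.03. In wild-type mice the median was -0.13.

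Striatal medium spiny neuron genes, low in transgenic mice at every age, showed a shift whose size varied with the mice included. Of 42 measured genes 5 were lower (11.9%) and 2 higher by limma at an unadjusted p under 0.05, against 3.16% and 3.21% of all genes, with a median of -0.07. Without the 18-week replicate 3 there were 0 lower (2.07% of all genes) and 2 higher (2.11%), and the median was 0.00. Without the 27-week replicates 2 and 3 there were 5 lower and 1 higher, and the median was -0.14. Over all 12582 genes 387 were then lower and 309 higher. Rasd2, the striatal GTPase Rhes, read 205, 189 and 291 at 18 weeks and 127, 180, 209 and 168 at 27 weeks, and Foxp2, a transcription factor gene, read 172, 172 and 224 and then 133, 156, 147 and 173. Foxp2 and Rasd2 overlapped between the ages. Syndig1l, a synaptic membrane protein gene, went the other way with 38.5, 32.7 and 37.6 and then 55.6, 48.8, 51.5 and 45.0, a change of 0.42 ± 0.13 (SE), while wild-type mice gave -0.32. The median difference between genotypes over the 42 genes went from -0.59 at 18 weeks through -0.86 at 22 to -0.48 at 27 weeks. The median change in wild-type mice was -0.25. In the wild-type mice low in Gabra6 the list level was 0.83 at 18 weeks and 0.78 and 1.01 at 22 weeks. It was 0.34 to 0.60 in the other wild-type mice, and the part of the dissection in these differences was not tested.

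Neuropeptide precursors showed 4 lower (14.3%) and 1 higher of 28 by limma at an unadjusted p under 0.05, against 3.16% and 3.21% of all genes. Without the 18-week replicate 3, 2 were lower and 1 higher, against 2.07% and 2.11% of all genes, and the median went from -0.05 to 0.01. Without the 27-week replicates 2 and 3, 5 were lower and 0 higher, and the median was -0.13. Over all 12582 genes 387 were then lower and 309 higher. Cck, cholecystokinin, read 839, 748 and 832 at 18 weeks and 485, 602, 632 and 622 at 27 weeks without overlap, a change of -0.46 that wild-type mice shared at -0.47. Pdyn, prodynorphin of direct-pathway neurons, read 31.5, 31.0 and 37.4 and then 25, 30.9, 17.9 and 14.1. Pomc, the precursor of melanocortins in hypothalamus and pituitary, was the higher one at 0.72, with 93.5 and 79.4 in the 27-week replicates 2 and 3, the mice with the highest Gh. The summed level of hypothalamus and pituitary markers counts Gh itself, at 558 and 1019 in these mice, so it is no separate measure of them. It was 1658 and 1873, against 817 and 851 in the other 27-week mice and 771 to 1001 at 18 weeks. The part of pituitary tissue in Pomc was not tested.

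Genes of excitability and synapses were read against 3.16% of all genes lower and 3.21% higher by limma at an unadjusted p under 0.05. Immediate early genes showed 2 lower of 38, Nptx2, a neuronal pentraxin, at -0.74 and Klf4, a transcription factor gene, at -0.43. Nptx2 read 22.3, 15 and 50.3 and then 10.9, 14.5, 15.9 and 13.1, with the 18-week replicate 3 far above the rest. Potassium channel genes showed 4 lower of 40, among them Kcnh3 at -0.31 and Kcnma1 at -0.21, glutamate receptor genes 1 of 20, the kainate receptor Grik3 at -0.38, and genes of the GABA synapse 2 of 15, Gabra2 and the scaffold gene Gphn at -0.21. The 4 potassium channel genes are 10% of their list and the 2 GABA synapse genes 13.3%. Without the 18-week replicate 3 the lower genes numbered 2 of the potassium channel list, 1 each of the GABA synapse and immediate early lists and 0 of the synaptic vesicle list. The share of all genes lower was then 2.07%. Calcium signalling genes and synaptic vesicle genes went both ways, with 1 lower and 1 higher of 39, and 2 lower and 1 higher of 29. Bsn, the active zone scaffold Bassoon, read 342, 310 and 314 and then 359, 437, 395 and 390, a change of 0.29 ± 0.08 (SE).

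Markers of cortical and hippocampal projection neurons included 2 lower of 29 (6.90%, against 3.16% of all genes) at an unadjusted p under 0.05. Without the 18-week replicate 3 there was 1, against 2.07% of all genes. Tbr1, a transcription factor gene of deep-layer neurons, read 127, 96.3 and 218 at 18 weeks and 81.1, 76.1, 85.5 and 88.2 at 27 weeks, and Neurod2 gave -0.38. The list's summed signal ranged from 12509 to 14655 at 18 weeks and from 11635 to 13635 at 27 weeks, so the ages overlapped. The median change was -0.05, or 0.00 without the 18-week replicate 3 and -0.15 without the 27-week replicates 2 and 3. For interneuron markers 2 of 22 were lower, Cck and Vip, or 1 without the 18-week replicate 3, against 2.07% of all genes. Their median was -0.07, or -0.01 without that mouse and -0.21 without the 27-week replicates 2 and 3. The overlap of the summed levels held for striatal genes as well, at 9938 to 11890 and 9103 to 10403.

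Astrocyte markers showed 5 lower (16.7%) and 1 higher of 30 by limma at an unadjusted p under 0.05, against 3.16% and 3.21% of all genes. Slc4a4, the bicarbonate transporter of astrocytes, read 813, 830 and 819 at 18 weeks and 650, 806, 700 and 653 at 27 weeks, a change of -0.23 ± 0.08 (SE) against 0.16 in wild-type mice. Ntsr2, a neurotensin receptor, read 910, 816 and 799 and then 744, 674, 634 and 705, and Fgfr3, a growth factor receptor, 322, 310 and 328 and then 283, 282, 245 and 291. The ages did not overlap in these 3 genes, as in 3.19% of all genes in this direction. Slc1a3 and Glul, which clear glutamate and turn it into glutamine, were the other lower members, and Mt3, a metallothionein, was higher at 0.28. The summed level of the 30 markers was 26829 to 30004 at 18 weeks and 26553 to 28755 at 27 weeks. The list median was -0.08, and 3 members were lower without the 18-week replicate 3, against 2.07% of all genes.

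Other glial and vascular lists held 0 to 2 genes at that level in either direction, against 3.16% of all genes lower and 3.21% higher. Myelin and oligodendrocyte genes showed 1 lower of 29, Cldn11, a tight junction protein of myelin, at -0.40, with a median of 0.07. Of 25 endothelial and pericyte genes 2 were higher. Cldn5, the claudin of the blood-brain barrier, read 127, 185 and 159 at 18 weeks and 203, 225, 277 and 232 at 27 weeks, a change of 0.57 ± 0.15 (SE) that came with 0.49 in wild-type mice. Vtn, vitronectin made by pericytes, gave 0.28. Oligodendrocyte precursor markers showed 1 lower of 14, C1ql1 at -0.58.

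**Figure D4:**
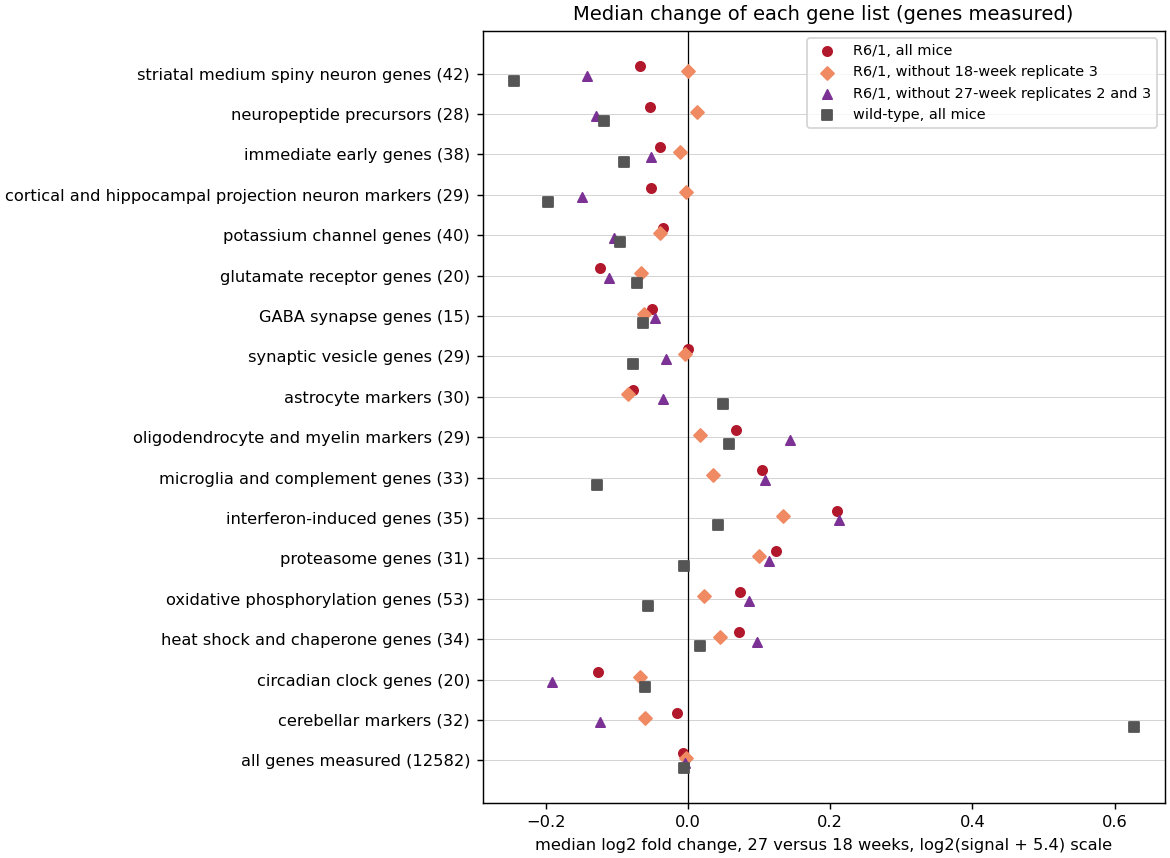
Median log2 fold change from 18 to 27 weeks of 17 gene lists and of all genes, with the number of genes measured in brackets, for R6/1 mice with all arrays (circles), without the 18-week replicate 3 (diamonds), without the 27-week replicates 2 and 3 (triangles) and for wild-type mice (squares). The medians of R6/1 mice lie between -0.19 and 0.21 in all 3 settings. That of the striatal list moves to 0.00 without the 18-week replicate 3 and to -0.14 without the 27-week replicates 2 and 3.

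**Figure D5:**
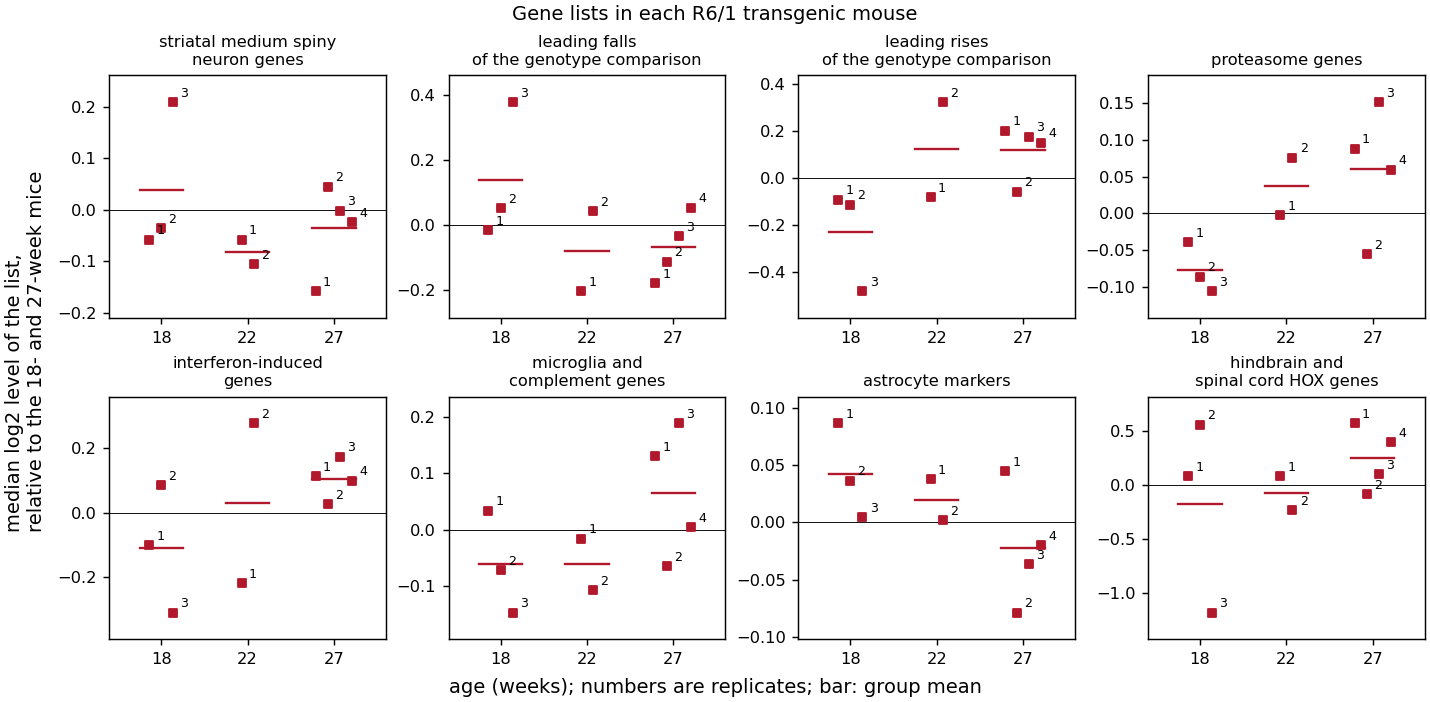
Median log2 level of 8 gene lists in each of the 9 R6/1 mice, relative to the mean of the 18- and 27-week mice, with points numbered by replicate and bars at the group means. The 18-week replicate 3 is the lowest 18-week mouse for the genes high in transgenic mice, the proteasome, interferon, microglia, astrocyte and HOX genes, and the highest for striatal genes and for the genes low in transgenic mice.

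The difference between genotypes in the change with age was led by Cacng3, an auxiliary subunit of AMPA receptors. It read 137, 133 and 161 in transgenic mice at 18 weeks and 164, 176, 204 and 161 at 27 weeks, a change of 0.28 ± 0.09 (SE). In wild-type mice it read 361, 346 and 318 and then 242, 225 and 231, a change of -0.54. The genotypes thus lay closer at 27 weeks, at -0.40, than at 18 weeks, at -1.22, and the interaction was 0.83 ± 0.13 (SE, adjusted p by limma 0.25). Fmod, the matrix proteoglycan fibromodulin, read 139, 150 and 122 and then 176, 179, 179 and 172 in transgenic mice and went from 108 to 138 down to 74.2 to 102 in wild-type mice, an interaction of 0.82. Zmynd11, Onecut2 and Gm10037 were the others of the 5 smallest p-values, and all 5 were higher with age in transgenic and lower in wild-type mice.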

How the data were processed

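Expression was measured in 18 brain hemispheres on single-channel Affymetrix arrays, and the 7 transgenic samples of 18 and 27 weeks are compared here. The deposited values are linear signal intensity, 1 per probe set and array. The submitters' processing notes name MAS5 (version not given in the sources used here). The mean of each array after trimming 2% at either end lay between 100 and 100.001. Groups were taken from the titles, each with a number of its own, and samples were treated as separate mice. The labels do not say more of their origin, so p-values measure the spread between these samples. An array has no read depth, and the number of mice limits the precision.

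Of 45101 probe sets, 64 controls were left out, 34945 had 1 gene in the platform annotation, 932 had several and 9160 had none. The 27022 probe sets with a mean above the 40th percentile of the means (16.1) were kept. Signals were turned into log2(signal + 5.4), the offset being the 20th percentile of all values, so fold changes of dim genes are understated. limma 3.58.1 in R 4.3.3 was fitted with 1 mean for each of 6 groups, which share the spread, eBayes with an intensity trend and Benjamini-Hochberg adjustment at 0.05. The fit was tested on simulated data. Each of 12582 genes was taken at its brightest probe set.

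Named were, beside the targeted gene, genes marking dissection and sex and the 24 genes of the genotype comparison, the 12 genes per direction with the smallest unadjusted p whose mice did not overlap, where too few passed, the 5 with the smallest p for the difference between genotypes, and up to 4 members of each of 37 gene lists. The members and lists were chosen with earlier results of these data known. Genes named beyond this rule were chosen after their values were seen. Lists are described by counts and medians without a test. Alternatives covered the offset, filter, normalization, array weights, variance model and samples fitted. All sample columns were mapped, with 0 left over.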

Additional observations from a re-analysis of the deposited data

Results flagged for a closer look

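In 9 of 94 values tested, 1 of the 4 transgenic mice of 27 weeks lay far from the other 3 relative to the range of the group. Chance alone gives such a value in about 1 in 20 groups of this size. The test was applied only to this group, since the others hold 3 mice or fewer.

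Of these, 5 were single genes. Sox5 read 68.7 in replicate 4, against 52.9 to 53.2 in the others. Xist read 637.9 in replicate 3, against 4.6 to 13.4, and Eif2s3y read 1.1 in the same mouse, against 173.4 to 183.3. Replicate 3 also had the lowest Slc6a3, the dopamine transporter, at 14.8 against 24.2 to 25.6. The probe set annotated to Mir1931 read 29.1 in replicate 1, against 0.9 to 3.3.

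The other 4 were medians of gene lists, on the log2 scale relative to the 7 mice. The median of the projection neuron markers was -0.13 in replicate 1, against -0.01 to 0.02 in the others. The collagens and matrix genes had 0.084 in replicate 2 against -0.06 to -0.05, and the clock genes had 0.029 in that mouse against -0.07 in each of the others. The mismatch repair genes had -0.085 in replicate 3, against 0.03 to 0.04.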

How the results depend on the processing

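In the fits of all 6 groups, under every offset, filter, normalization, weighting and variance model tried, 0 probe sets passed in either direction between 18 and 27 weeks in transgenic mice, and 0 passed for the difference between genotypes. A linear change per week over the 9 transgenic mice was likewise called by limma for 0, with 1493 at an unadjusted p under 0.05. Fits of the 9 transgenic arrays called 1 lower and 8 higher, and fits of the 7 arrays 1 lower and 4 higher. Those fits hold fewer samples by construction. Leaving out 1 transgenic mouse at a time gave 0 to 1 higher probe sets, the 1 being that of Zmynd11 (adjusted p by limma 0.038, over the 18-week replicate 1), and leaving out the 18-week wild-type replicate 3 called the Gas5 probe set 1419291_x_at (adjusted p by limma 0.0226). The count at an unadjusted p under 0.05 ranged from 1234 to 2635. It was 2635 without the filter on dim probe sets, where more are tested, and 2001 for the difference between genotypes.

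The median change of the genes higher in transgenic mice at 22 weeks was 0.064 with an offset of 32, 0.063 with array weights and 0.095 without the 27-week replicates 2 and 3, and leaving out 1 mouse at a time gave 0.045 to 0.080. For astrocyte markers that range was -0.096 to -0.016. In a setting chosen after seeing the data, without the 18-week replicate 3 and the 27-week replicates 2 and 3, the median was 0.0076 for oxidative phosphorylation genes and -0.023 for astrocyte markers. The cause was not tested. The medians of the proteasome, interferon and microglia lists kept their sign in all 20 settings. That of the striatal list changed sign in 1, without the 18-week replicate 3, that of the immediate early genes in 2 and that of the calcium signalling genes in 3. No paired analysis was possible because the labels carry no replicate numbers that the ages share.

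With 3 mice against 4, the typical 95% interval of a gene, without adjustment, was ± 0.28 log2 units. It is no limit of detection at the adjusted threshold. Rian at 1.10 and Gabra2 at -1.02 missed that threshold, with adjusted p-values by limma of 0.620 and 0.671. Values near the background, such as those of Hoxb5, have little order.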

Other observations

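Several genes of 1 stretch of chromosome 1 were higher at 27 weeks. The stretch was chosen after its values were seen, and no test is given. In the order of the RefSeq gene table, it runs from Gas5 to Srp9 and holds 120 measured genes, of which 15 (12.5%) reached an unadjusted p under 0.05 by limma between 18 and 27 weeks in transgenic mice. Both of its ends are genes at that level, which raises its share. On the rest of chromosome 1 that level was reached by 25 of 603 genes (4.15%), and over all genes by 6.37%. Chromosome 1 as a whole had 5.53%, and chromosome 14 had 9.89%. In wild-type mice 11 of the 120 reached it, beside 7.77% of all genes in that comparison. Adss and Gas5 are 2 of the 15. Suco, a protein of the endoplasmic reticulum, read 275, 288 and 270 at 18 weeks, 341 and 351 at 22 weeks, and then 319, 322, 361 and 354. Uhmk1, a kinase gene, read 450, 480 and 562 at 18 weeks, 710 and 703 at 22 weeks, and then 647, 636, 648 and 617. Both were above all 18-week mice at either later age. The fold changes were 0.41 for Pex19, a factor of peroxisome assembly, 0.26 for the coat protein gene Copa and 0.35 for Srp9 of the signal recognition particle, while the homeobox gene Prrx1 had -0.45.

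For 11 of the 15 the mean of the 22-week mice lay beyond that of the 27-week mice, as it did for 164 (20.4%) of all 802 genes at that level. Among the 9 probe sets called from transgenic arrays alone, those of Gas5, Rgs5 and Adamts4 are the ones with a gene name. Windows of 25 neighbouring genes held at most 9 such genes in the transgenic comparison, on chromosome 14 from Tmem260 to Chd8, and at most 8 in the wild-type comparison, on chromosome 3 from Extl2 to Bcar3.

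Of 20 circadian clock genes, 1 was higher and 0 lower by limma at an unadjusted p under 0.05, against 3.21% and 3.16% of all genes. The list median was -0.13. Without the 18-week replicate 3, 2 were lower and 1 higher, against 2.07% and 2.11% of all genes, and the median was -0.07. Arntl, the activator of the clock, had 0.46 at its brightest probe set and -0.34 at its other one. Per2 and Per3 had -0.33 and -0.41 without reaching that level. Per3 read 115, 66.4 and 84.4 at 18 weeks and 73.7, 68.8, 43.8 and 74.6 at 27 weeks, so the ages overlapped.

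Of 20 genes of newborn neurons and progenitors 2 were lower and 2 higher at that level, against 3.16% and 3.21% of all genes. Without the 18-week replicate 3 there were 0 and 2, against 2.07% and 2.11%. Ccnd2, a cyclin of dividing progenitors, read 261, 275 and 296 and then 244, 172, 240 and 201, a change of -0.38, and Tubb2b, a tubulin of growing neurons, had -0.29. Nes, the intermediate filament nestin, had 0.65 and Pcna, the sliding clamp of DNA replication, 0.27. Of 19 mismatch and DNA repair genes Pcna alone reached that level, and Msh3, a mismatch repair gene known to promote CAG repeat expansion, read 75.6, 75.4 and 98.3 and then 80.4, 66.8, 61.8 and 61.9, a change of -0.27 with overlap. Of 23 homeobox and Polycomb-regulated genes Onecut2 was higher and Six3, a forebrain homeobox gene, was lower at -0.37.

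Lipid, stress and matrix lists held few genes at that level, which 3.16% of all genes reached as lower and 3.21% as higher. Of 20 cholesterol synthesis genes Hsd17b7 was higher at 0.31 and Lss lower at -0.25, and of 22 glucocorticoid-response genes Nfkbia was higher at 0.22. Of 29 collagen and matrix genes Bgn and Nid1 were lower at -0.35 and -0.34. Of 27 meningeal markers Bgn was lower and Fmod and Slc6a13 higher. Without the 18-week replicate 3 the meningeal markers showed 0 lower and 1 higher, and the cholesterol genes 2 lower and 0 higher. The matrix genes then showed 1 lower and the glucocorticoid-response genes 0 in either direction. The shares of all genes were 2.07% lower and 2.11% higher. Slc6a13, a GABA transporter of the meninges, read 25, 44.6 and 25.4 and then 72.0, 43.9, 44.1 and 45.5, a change of 0.63 beside -0.54 in wild-type mice.

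Markers of other brain regions and of blood likewise held few genes at that level, against 3.16% of all genes lower and 3.21% higher. Of 32 cerebellar markers, 26 choroid plexus and ependymal markers, 13 brainstem markers and 4 haemoglobin and blood cell genes, 0 were lower or higher by limma at an unadjusted p under 0.05 between the transgenic ages, with medians of -0.02, -0.01, 0.14 and -0.06. Of 17 olfactory bulb markers Lhx2 was lower at -0.43, of 31 thalamus and midbrain markers Lef1 at -0.48 and Zfhx3 at -0.37, and of 16 hypothalamus and pituitary markers Pmch was lower and Pomc higher. The lower markers of these 3 lists numbered 0 without the 18-week replicate 3, against 2.07% of all genes. The 5 measured HOX genes, which mark hindbrain and spinal cord, had a median of 0.43, or -0.18 without the 18-week replicate 3, and 0 of them reached that level. Hoxb5 read 13.1, 41.9 and 0.7 at 18 weeks and 32.6, 28.6, 23.1 and 28.2 at 27 weeks.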
